A study of Mus musculus with 18 samples.

Results

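The glutamate transporter genes described here are the 7 that were listed by symbol, the vesicular transporters Slc17a7, Slc17a6 and Slc17a8 and the plasma membrane transporters Slc1a2, Slc1a3, Slc1a1 and Slc1a6. All 7 were found among the 53468 genes of the count table by their Ensembl identifiers. They were listed by name and not by a threshold on a measured value, with earlier results of these data known. mRNA was sequenced from the dissected forebrain, midbrain and hindbrain of 3 wild-type mice and 3 Fmr1CRE mice of 1 litter at postnatal day 25 (P25), with 1 library for each region of each mouse, 18 libraries in all. Fmr1CRE mice carry a single-base change, made with CRISPR/Cas9 on a C57BL/6 background, in a cis-regulatory element of Fmr1, the gene of the fragile X protein. No cells were sorted, and each library holds all cell types of its region. The purpose of the sequencing was to compare the genotypes within each region.

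Excitatory neurons in the brain load glutamate into synaptic vesicles with a vesicular transporter, and a neuron usually relies on VGLUT1 (Slc17a7) or VGLUT2 (Slc17a6). VGLUT1 is best known from cortical, hippocampal and cerebellar granule neurons, VGLUT2 from the thalamus, midbrain and brainstem, and VGLUT3 (Slc17a8) from scattered neurons that often release another transmitter as well, such as serotonin or acetylcholine. After release, glutamate is cleared across the plasma membrane by GLT-1 (Slc1a2) and GLAST (Slc1a3), which are mainly astrocytic, by EAAC1 (Slc1a1) in neurons, and by EAAT4 (Slc1a6), which is known from cerebellar Purkinje cells.

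In GENCODE M21 on GRCm38 all 7 genes are protein coding. Slc17a7 (ENSMUSG00000070570) lies at chr7:45163949-45176142 and Slc17a6 (ENSMUSG00000030500) at chr7:51622006-51671119, both on the plus strand and 6445864 bases apart. Slc17a8 (ENSMUSG00000019935) lies at chr10:89574020-89621253 on the minus strand, and Slc1a6 (ENSMUSG00000005357) at chr10:78780496-78814765 on the plus strand. Slc1a2 (ENSMUSG00000005089) lies at chr2:102658659-102790784 on the plus strand, Slc1a3 (ENSMUSG00000005360) at chr15:8634124-8710764 on the minus strand and Slc1a1 (ENSMUSG00000024935) at chr19:28835049-28913960 on the plus strand. No sequence of 31 bases in the transcripts of a member occurred in another member. For Slc1a1, 31.5% of such sequences also occurred in other genes. Slc1a1 overlaps 4430402I18Rik, with at most 129 counts in a library, and the processed pseudogene Gm5822, with at most 13, both on the opposite strand. The counting is not stated to have used strand, so Slc1a1 values may hold some reads of these genes. In the other 6 genes the share was at most 3.17%.

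The promoters of 3 members are shown as examples picked after their values were seen, Slc17a7, which was higher in forebrain than in hindbrain, and Slc17a6 and Slc1a6, which were lower. They are RefSeq windows of 250 bases before to 50 bases after the annotated start on GRCm38.p6. All 7 members matched a RefSeq window. The vesicular pair Slc17a7 and Slc17a6 comes first, the latter with the first of its annotated starts, at chr7:45163671-45163970 and chr7:51621580-51621879, and Slc1a6 follows, at chr10:78780246-78780545. All are read 5′ to 3′ on the plus strand. Capitals mark matches to the E-box CANNTG, the general target of basic helix-loop-helix factors, which reads the same on both strands.
Slc17a7: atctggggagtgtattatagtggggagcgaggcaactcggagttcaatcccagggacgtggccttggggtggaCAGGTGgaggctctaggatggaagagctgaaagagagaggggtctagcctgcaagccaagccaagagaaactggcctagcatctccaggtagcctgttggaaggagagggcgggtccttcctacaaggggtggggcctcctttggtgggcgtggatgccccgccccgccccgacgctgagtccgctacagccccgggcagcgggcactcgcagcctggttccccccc
Slc17a6: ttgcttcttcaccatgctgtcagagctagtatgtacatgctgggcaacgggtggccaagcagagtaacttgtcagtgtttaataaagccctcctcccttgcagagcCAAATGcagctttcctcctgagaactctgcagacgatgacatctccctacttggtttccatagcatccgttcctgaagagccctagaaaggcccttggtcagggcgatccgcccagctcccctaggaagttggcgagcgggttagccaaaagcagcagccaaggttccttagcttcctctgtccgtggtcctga
Slc1a6: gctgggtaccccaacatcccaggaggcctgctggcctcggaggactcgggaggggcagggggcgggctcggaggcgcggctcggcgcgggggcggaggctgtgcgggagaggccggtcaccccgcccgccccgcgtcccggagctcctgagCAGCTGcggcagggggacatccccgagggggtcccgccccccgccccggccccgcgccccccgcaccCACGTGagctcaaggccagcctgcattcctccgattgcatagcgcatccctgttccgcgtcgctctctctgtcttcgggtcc
Slc17a7 and Slc17a6 each held 1 E-box and Slc1a6 held 2. Of the members not shown, Slc1a2 held 5, Slc1a1 0 and Slc1a3 1, and the windows of the 2 starts of Slc17a8 held 2 and 1. At least 1 was present in 72.3% of the 32851 promoters in the RefSeq table. GC content was 63.7% in the Slc17a7 window, 53.7% in that of Slc17a6 and 75.7% in that of Slc1a6, and the median over all promoters was 52.7%. The GC box GGGCGG, counted on both strands, was present 3 times in the Slc17a7 window, 1 time in that of Slc17a6 and 6 times in that of Slc1a6, and in 35.7% of all promoters. These are matches of letters and not sites of binding.

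Each library held between 22455512 and 28061185 counts on genes, and replicates of a group differed by more than counting noise. Fmr1 itself lay between 5.68 and 6.38 log2 CPM in the 18 libraries, and its log2 difference between Fmr1CRE and wild type was -0.0033 in forebrain, 0.0056 in midbrain and 0.15 in hindbrain (edgeR, adjusted p = 0.996, 0.995 and 0.906). The region labels were checked against marker lists. Hox genes and other medulla and pons markers summed to 0.341 CPM or less in every forebrain library and to 169.9 CPM or more in every hindbrain library. In the libraries labelled midbrain they summed to between 8.56 and 47.3 CPM. The 7 cortical and hippocampal markers (Camk2a, Tbr1 and others) summed to between 1256 and 2442 CPM in the libraries labelled midbrain, against 1819 to 5175 CPM in forebrain and 104.4 to 139.4 CPM in hindbrain. The 8 cerebellar granule cell markers summed to between 277 and 667 CPM in those midbrain libraries, against 83.0 to 108.5 CPM in forebrain and 723 to 1597 CPM in hindbrain. Markers of cortex, of cerebellum and of medulla and pons were thus detected in the libraries labelled midbrain. Their part in the midbrain levels below was not tested. The forebrain libraries labelled replicate 3 went against the labels of the same mice. There were 22 genes that separated those mice by 3 or more log2 units with 1 sign in both midbrain and hindbrain. In the libraries labelled forebrain the sign was turned for 18 of them and kept for 4. In every other pair of mice at most 13 genes were turned, of 12 to 33. Values without both replicate 3 mice stand beside the tests of the members below.

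Slc17a7 was lower in hindbrain than in forebrain and midbrain. Its level was given as CPM, read counts scaled to a common library size with TMM factors. It was 872, 934 and 954 CPM in the forebrain of wild-type replicates 1, 2 and 3 and 699, 850.2 and 921 CPM in that of Fmr1CRE replicates 1, 2 and 3. In midbrain it was 861, 825 and 563 CPM in wild-type mice and 444, 766 and 743 CPM in Fmr1CRE mice. In hindbrain it was 122, 113 and 93.0 CPM in wild-type mice and 188, 105 and 117 CPM in Fmr1CRE mice. Every forebrain and midbrain library lay above every hindbrain library, and forebrain and midbrain overlapped. The mean was 872 ± 93.2 CPM in forebrain, 700.3 ± 163 CPM in midbrain and 123 ± 33.4 CPM in hindbrain (SD, n = 6).

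Slc17a6, which encodes VGLUT2, was lowest in forebrain. Its forebrain level was 75.5, 87.2 and 54.3 CPM in wild-type mice and 72.1, 27.3 and 86.9 CPM in Fmr1CRE mice. In midbrain it was 167, 149.8 and 172 CPM in wild-type mice and 208.5, 128 and 161 CPM in Fmr1CRE mice, and in hindbrain 128, 139 and 193 CPM and 145, 168 and 150.2 CPM. All forebrain libraries lay below all others, and midbrain and hindbrain overlapped over most of their range. The mean was 67.2 ± 22.9 CPM in forebrain, 164 ± 26.8 CPM in midbrain and 154 ± 23.1 CPM in hindbrain (SD, n = 6).

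Within forebrain, Slc17a6 was lowest in Fmr1CRE replicate 2, and that library was also the lowest of the 6 for 8 of 8 thalamic markers. The thalamic markers, Tcf7l2 and Ntng1 among them, summed to 194 CPM there and to between 310.1 and 419 CPM in the other forebrain libraries, and 0 of the 8 was at 0. The list is not particular to thalamus in these libraries, since it summed to between 418 and 499 CPM in hindbrain. In the libraries labelled midbrain it summed to between 429 and 582 CPM. The part of the thalamic markers in the value of Slc17a6 was not tested. Within midbrain, Slc17a7 was lowest in Fmr1CRE replicate 1, at 444 CPM, and next lowest in wild-type replicate 3, at 563 CPM. The summed cortical and hippocampal markers were lowest in the same libraries, at 1256 and 1351 CPM, against 2094 to 2442 CPM in the other midbrain libraries, and none of the 7 was at 0. Their part was not tested. In bulk tissue, fewer cells of a type and less RNA per cell cannot be told apart, here or in any comparison below.

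Slc17a8 was measured at low levels throughout, with between 37 and 165 counts in a library. Its level ran from 2.92 CPM over a median of 4.77 to 6.03 CPM in forebrain, from 4.55 over 6.01 to 6.41 CPM in midbrain and from 1.32 over 1.56 to 3.68 CPM in hindbrain. The highest hindbrain library, Fmr1CRE replicate 2, lay above the lowest forebrain library, Fmr1CRE replicate 1, and the others did not overlap between these regions.

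**Figure D1:**
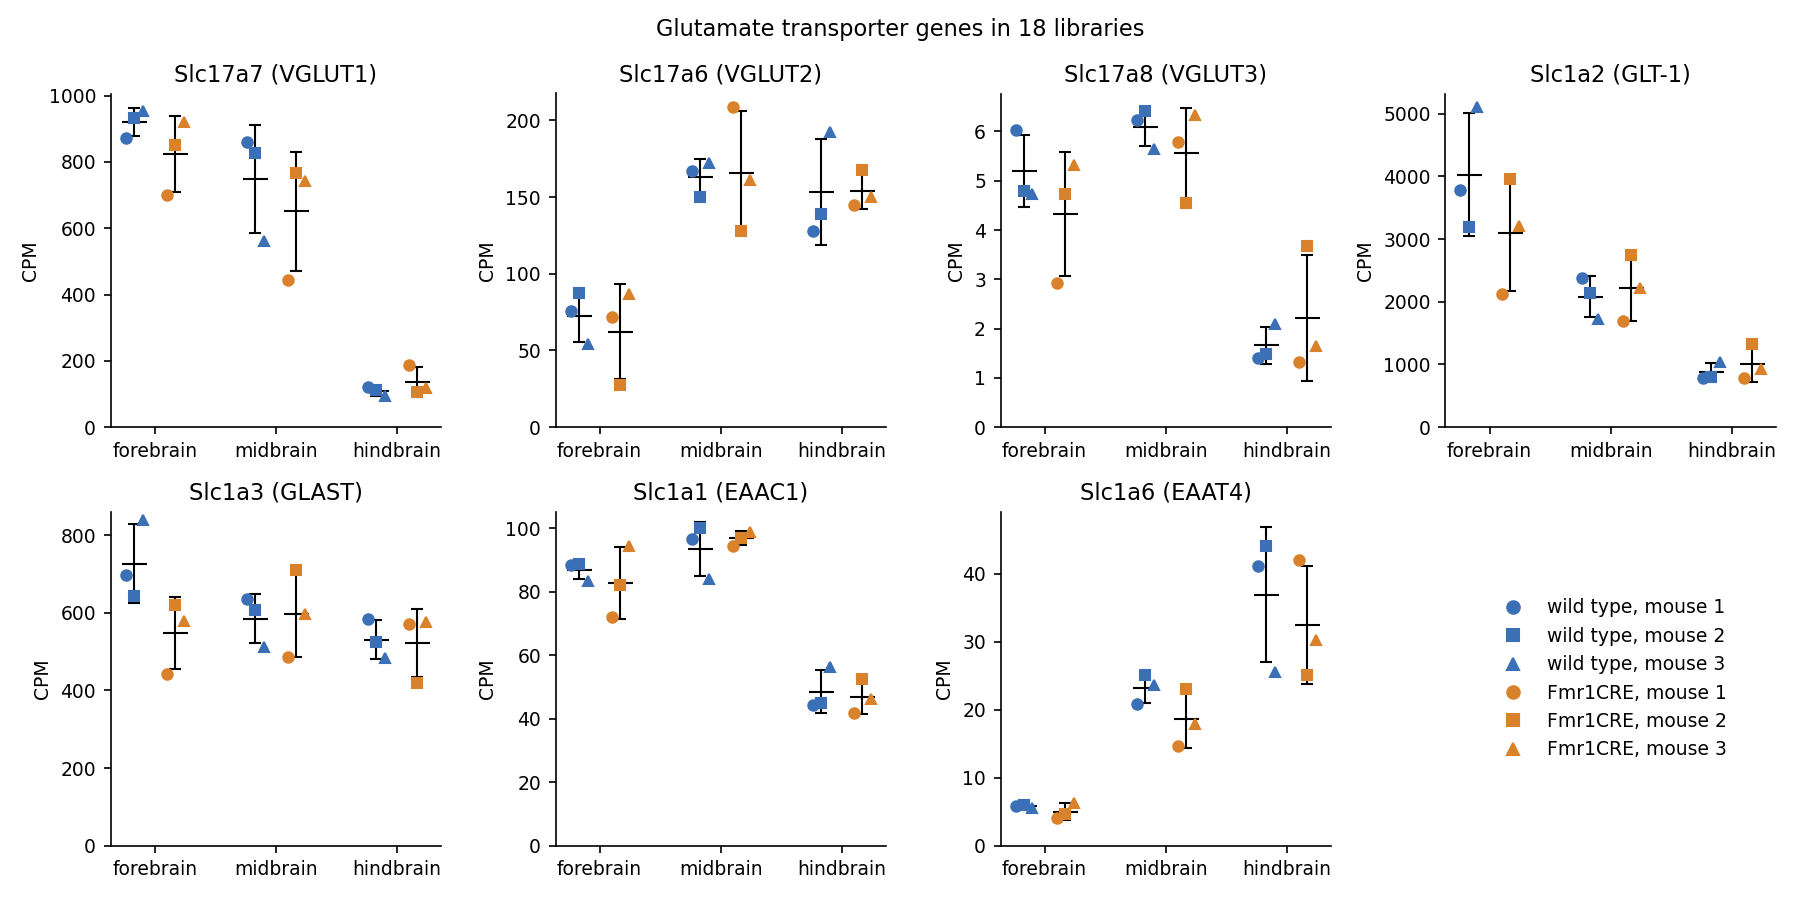
Level of each glutamate transporter gene in the 18 libraries. The vertical axes give TMM-scaled CPM from 0, the horizontal axes the region, points are mice (blue wild type, orange Fmr1CRE), and black bars are the mean ± SD of 3 mice. Slc17a7 falls from 699 to 954 CPM in forebrain to 93.0 to 188 CPM in hindbrain, Slc1a6 climbs from 4.03 to 6.35 CPM to 25.1 to 44.1 CPM, and Slc1a3 stays between 420.1 and 839 CPM.

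Among the plasma membrane transporters, Slc1a2 carried the most counts of any member in every region and showed a fall from forebrain to hindbrain. Its forebrain level was 3783, 3191 and 5105 CPM in wild-type mice and 2125, 3968 and 3205 CPM in Fmr1CRE mice. In midbrain it was 2378, 2143 and 1729.9 CPM and 1698, 2750.2 and 2227 CPM, and in hindbrain 789.6, 798 and 1038 CPM and 780.5, 1334 and 926 CPM. Hindbrain lay below both other regions in every library, while forebrain and midbrain overlapped through the forebrain of Fmr1CRE replicate 1 and the midbrain of several mice. The mean was 3563 ± 992 CPM in forebrain, 2154 ± 399.6 CPM in midbrain and 944 ± 216 CPM in hindbrain (SD, n = 6).

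The spread of Slc1a2 within forebrain was wide, with the highest library 2.40-fold above the lowest. The lowest, Fmr1CRE replicate 1, was also the lowest of the 6 forebrain libraries for 6 of the 7 members, for 7 of 10 astrocyte markers and for 10 of 14 genes of glutamate synthesis and the glutamine cycle. The highest, wild-type replicate 3, was the highest for 6 of 10 astrocyte markers. Summed astrocyte markers were 1795 CPM in the former, 2704 CPM in the latter and between 2083 and 2418 CPM in the other forebrain libraries. None of the 10 was at 0, and their part in the spread of Slc1a2 was not tested.

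Slc1a3, the other astrocytic transporter, had the smallest spread of the members over the 18 libraries, an SD of 0.25 in log2 CPM. It ran from 442 CPM over a median of 631 to 839 CPM in forebrain, from 486 over 602 to 709.7 CPM in midbrain and from 420.1 over 547 to 584 CPM in hindbrain, and all 3 ranges overlapped. The astrocyte markers as a list did not follow Slc1a2. Their sum was 3901 to 4531 CPM in hindbrain and 1795 to 2704 CPM in forebrain. Of the 10 markers 2 were higher and 4 lower in forebrain than in hindbrain, beside 26.4% and 25.3% of all genes.

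Slc1a1 showed a tight step between regions. It ran from 72.0 CPM over a median of 86.0 to 94.4 CPM in forebrain, from 84.1 over 96.9 to 100.2 CPM in midbrain and from 41.7 over 45.7 to 56.4 CPM in hindbrain. No hindbrain library reached a forebrain or midbrain library.

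Slc1a6 rose from forebrain through midbrain to hindbrain without overlap between any regions. It was 5.81, 6.01 and 5.52 CPM in the forebrain of wild-type mice and 4.03, 4.65 and 6.35 CPM in that of Fmr1CRE mice. In midbrain it was 20.8, 25.1 and 23.6 CPM in wild-type mice and 14.7, 23.1 and 17.9 CPM in Fmr1CRE mice, and in hindbrain 41.2, 44.1 and 25.5 CPM and 42.0, 25.1 and 30.2 CPM. The lowest hindbrain library stood just above the highest midbrain library. The other 7 Purkinje cell markers, Pcp2 and Car8 among them, summed to between 769.8 and 1111 CPM in forebrain, 1333 and 2294 CPM in midbrain and 1732 and 3304 CPM in hindbrain. Pcp2 was at 0 in the forebrain of wild-type replicate 1 and Fmr1CRE replicate 3 and at 25.4 to 90.9 CPM in midbrain. The part of cerebellar RNA in the midbrain level of Slc1a6 was not tested.

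The regions were compared with edgeR's quasi-likelihood test over all 18 libraries, averaged over genotypes, with Benjamini-Hochberg adjustment over 20363 genes. A gene was called where its adjusted p was under 0.05. Between forebrain and hindbrain, 4 of the 7 members were higher in forebrain and 2 were lower. Most genes differed between these regions, since 51.7% of all genes tested were called, 26.4% as higher and 25.3% as lower, so a called member was like most genes in this respect. The libraries of the 2 regions did not overlap for 5 of 7 members and for 27.7% of all genes. The median log2 fold change was 0.83 over the members and -0.0085 over all genes tested. The log2 fold change of Slc17a7 was 2.83 (standard error, SE, 0.17), which is 7.12-fold higher in forebrain (edgeR, adjusted p = 1.74e-09). Slc1a2 was 3.75-fold higher (log2 1.91, SE 0.18, adjusted p = 3.26e-07), Slc17a8 2.46-fold higher (1.30, SE 0.23, 0.000173) and Slc1a1 1.78-fold higher (0.83, SE 0.086, 7.06e-07). Slc1a6 was 6.44-fold lower in forebrain (log2 -2.69, SE 0.17, adjusted p = 3.03e-09) and Slc17a6 2.30-fold lower (-1.20, SE 0.22, 0.000242). For Slc1a3 the log2 difference was 0.26, with a 95% confidence interval of 0.0090 to 0.51 and an adjusted p of 0.0775. It was called in the wild-type mice alone (log2 0.44, adjusted p = 0.0189) and without Fmr1CRE replicate 1 (0.36, 0.0172). Without both replicate 3 mice the 6 called members kept their calls, with log2 fold changes of 2.67 for Slc17a7, 1.83 for Slc1a2, 1.26 for Slc17a8, 0.85 for Slc1a1, -2.90 for Slc1a6 and -1.18 for Slc17a6, and Slc1a3 had 0.19 (adjusted p = 0.348). In a fit of the Fmr1CRE mice alone, added after the data were seen, Slc17a8 lost its call (log2 0.93, adjusted p = 0.0916).

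Between forebrain and midbrain, 1 of 7 members was higher in forebrain and 2 were lower, beside 19.3% of all genes called, 9.38% higher and 9.96% lower. The regions did not overlap for 2 of 7 members and for 10.5% of all genes. Slc1a6 was 3.86-fold lower in forebrain (log2 -1.95, SE 0.17, adjusted p = 1.74e-06) and Slc17a6 2.45-fold lower (-1.29, SE 0.22, 0.000664). Slc1a2 was 1.64-fold higher in forebrain (0.71, SE 0.18, adjusted p = 0.0108). The call of Slc1a2 was lost without wild-type replicate 3 (log2 0.55, adjusted p = 0.0660) and without both replicate 3 mice (0.54, 0.140), the mice whose forebrain labels are in doubt. Without those mice Slc1a6 (-2.04) and Slc17a6 (-1.36) kept their calls. The call of Slc1a2 was also lost in the Fmr1CRE mice alone (0.48, adjusted p = 0.316), as was that of Slc17a6 (-1.41, 0.0651). Slc17a7, at a log2 difference of 0.32 and an interval of -0.028 to 0.66, was not called (adjusted p = 0.192), and neither were Slc17a8 (-0.30, interval -0.76 to 0.17), Slc1a1 (-0.17, interval -0.35 to 0.013) or Slc1a3 (0.093, interval -0.16 to 0.34).

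Between midbrain and hindbrain, 4 of 7 members were higher in midbrain and 1 was lower, beside 49.1% of all genes called, 25.1% higher and 24% lower. The regions did not overlap for 5 of 7 members and for 26.9% of all genes. Slc17a7 was 5.71-fold higher in midbrain (log2 2.51, SE 0.17, adjusted p = 1.29e-08). Slc17a8 was 3.03-fold higher (1.60, SE 0.23, 3.32e-05), Slc1a2 2.29-fold higher (1.19, SE 0.18, 5.66e-05) and Slc1a1 1.998-fold higher (0.998, SE 0.086, 1.76e-07). Slc1a6 was 1.67-fold lower in midbrain (-0.74, SE 0.16, adjusted p = 0.00128). The log2 difference of Slc17a6 was 0.096 with an interval of -0.36 to 0.55 (adjusted p = 0.741) and that of Slc1a3 0.17 with an interval of -0.084 to 0.42 (0.258). The 5 calls were kept without both replicate 3 mice, with 2.45 for Slc17a7, 1.59 for Slc17a8, 1.29 for Slc1a2, 1.09 for Slc1a1 and -0.86 for Slc1a6. The 3 comparisons share libraries, so they are not independent of each other.

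**Figure D2:**
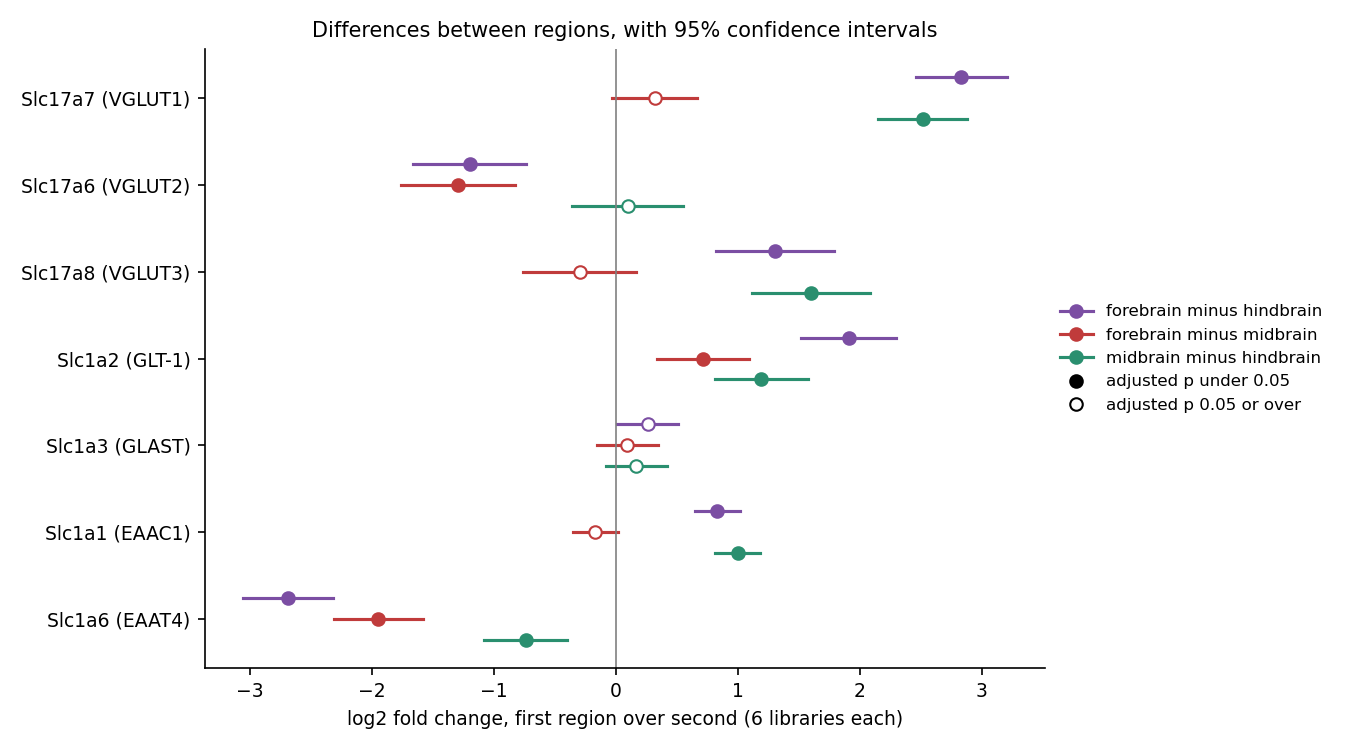
Differences between regions for each member. The horizontal axis gives the log2 fold change of the first region over the second, lines are 95% confidence intervals of edgeR over 6 libraries a region, and filled points have an adjusted p under 0.05. Slc17a7 lies at 2.83 and 2.51 against hindbrain, Slc1a6 at -2.69, -1.95 and -0.74, and all intervals of Slc1a3 lie between -0.16 and 0.51.

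The balance of the vesicular transporters was then taken within each library, as the ratio of the Slc17a7 count to the Slc17a6 count, which does not depend on library size. In forebrain it was 11.6, 10.7 and 17.6 in wild-type replicates 1, 2 and 3 and 9.70, 31.1 and 10.6 in Fmr1CRE replicates 1, 2 and 3. In midbrain it was 5.16, 5.51 and 3.26 in wild-type mice and 2.13, 6.00 and 4.61 in Fmr1CRE mice. In hindbrain it was 0.951, 0.814 and 0.483 in wild-type mice and 1.30, 0.627 and 0.777 in Fmr1CRE mice. Slc17a7 exceeded Slc17a6 in every forebrain and midbrain library, and in hindbrain only in Fmr1CRE replicate 1. That library was also the highest of the 6 hindbrain libraries for 8 of 8 granule cell markers. These markers summed to 1597 CPM there and to between 723 and 1153 CPM in the other hindbrain libraries. Their part in the ratio was not tested. No library of a region overlapped with another region.

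Geometric mean ratios were 13.8, 4.20 and 0.786 in forebrain, midbrain and hindbrain. The mean log2 ratio differed by 4.13 between forebrain and hindbrain, by 1.72 between forebrain and midbrain and by 2.42 between midbrain and hindbrain. Each difference had the same direction in 6 of 6 mice and an exact permutation p of 0.00216 (two-sided, 6 libraries against 6, also 0.00216 after adjustment over 6 tests), the smallest the test can give. That test takes the libraries as independent, although the same 6 mice gave all regions. An exact sign-flip test of the differences within the 6 mice gave p = 0.03125 each (two-sided), also the smallest possible. Without both replicate 3 mice, as added after the data were seen, the differences were 3.96, 1.67 and 2.29 (exact permutation p = 0.0286 each, the smallest possible for 4 against 4). That permutation test again takes the libraries as independent. The highest ratio, 31.1, belonged to the forebrain library with the low Slc17a6 and low thalamic markers described above.

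The astrocytic pair gave a second balance, the ratio of the Slc1a2 count to the Slc1a3 count. It was 5.42, 4.96 and 6.09 in the forebrain of wild-type mice and 4.80, 6.40 and 5.53 in that of Fmr1CRE mice. In midbrain it stayed within 3.37 and 3.88. In hindbrain it was 1.35, 1.52 and 2.14 in wild-type mice and 1.37, 3.18 and 1.61 in Fmr1CRE mice, so that Fmr1CRE replicate 2 came close to the midbrain libraries without reaching them. That library was also the highest of the 6 hindbrain libraries for 11 of 14 genes of glutamate synthesis and the glutamine cycle. The log2 ratio differed by 1.64 between forebrain and hindbrain, 0.60 between forebrain and midbrain and 1.03 between midbrain and hindbrain, again in 6 of 6 mice each (exact permutation p = 0.00216 each, adjusted 0.00216). The exact sign-flip test within the 6 mice gave p = 0.03125 each (two-sided), the smallest possible. Without both replicate 3 mice, likewise added after the data were seen, the differences were 1.63, 0.55 and 1.08 (exact permutation p = 0.0286 each). The permutation tests of this ratio also take the libraries as independent. Per length of transcript the ratio was 1.61 to 2.15 in forebrain, 1.13 to 1.30 in midbrain and 0.454 to 1.07 in hindbrain, so Slc1a3 exceeded Slc1a2 in every hindbrain library but that of Fmr1CRE replicate 2.

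**Figure D3:**
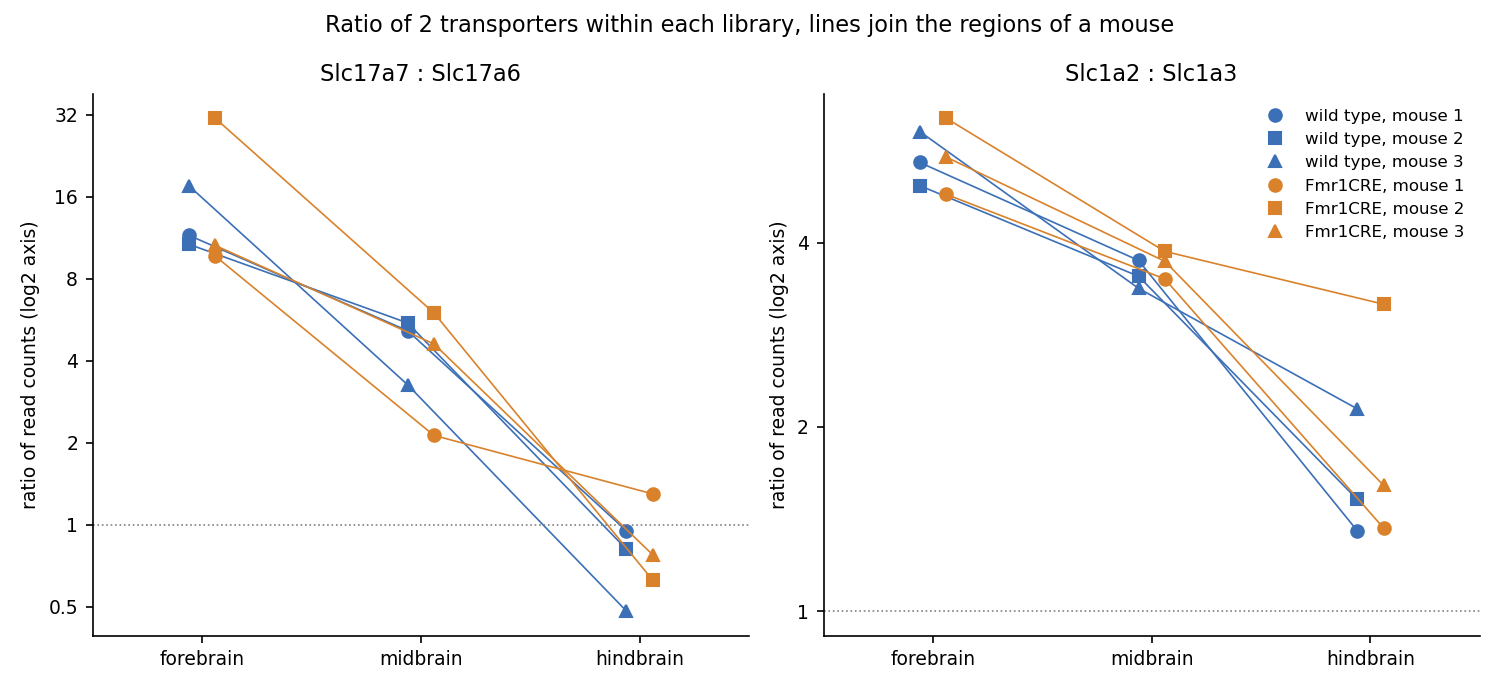
Ratio of 2 transporters in each library. The vertical axes give the ratio of read counts on a log2 scale, the horizontal axes the region, each line joins the regions of 1 mouse (blue wild type, orange Fmr1CRE), and the dotted line marks equal counts. In all 6 mice Slc17a7 to Slc17a6 falls from 9.70 to 31.1 in forebrain to 0.483 to 1.30 in hindbrain, and Slc1a2 to Slc1a3 falls from 4.80 to 6.40 to 1.35 to 3.18.

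Levels of different genes were compared per kilobase of effective length, which was 9295 bases for Slc1a2 and between 1973 and 3855 bases for the others. In forebrain the order was Slc1a2 with 383 ± 107 CPM per kilobase (SD, n = 6), Slc17a7 with 262 ± 28.0, Slc1a3 with 204 ± 42.0, Slc1a1 with 25.9 ± 2.34, Slc17a6 with 20.3 ± 6.92, Slc1a6 with 2.73 ± 0.447 and Slc17a8 with 1.23 ± 0.268. The ranges of Slc1a2, Slc17a7 and Slc1a3 overlapped from neighbour to neighbour, as did those of Slc1a1 and Slc17a6. In midbrain the order was Slc1a2 (232), Slc17a7 (211), Slc1a3 (189), Slc17a6 (49.6), Slc1a1 (29.0), Slc1a6 (10.6) and Slc17a8 (1.51), in CPM per kilobase, and again the first 3 overlapped while the rest stood apart. In hindbrain Slc1a3 came first with 169 ± 20.6 CPM per kilobase, before Slc1a2 with 102 ± 23.2, and the ranges of these 2 genes overlapped. Slc17a6 (46.4) overlapped with Slc17a7 (37.0), and Slc1a6 (17.6) with Slc1a1 (14.5), while Slc17a8 (0.503) stood below all. With the longest annotated transcript as the length, Slc17a7 moved above Slc1a2 in midbrain and above Slc17a6 in hindbrain, both between genes whose ranges overlap.

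On this scale Slc17a7 made up 92.4% ± 2.39 (SD, n = 6) of the vesicular transporters in forebrain, 79.6% ± 6.79 in midbrain and 43.8% ± 8.28 in hindbrain. Slc17a6 made up 7.15% ± 2.40, 19.8% ± 6.69 and 55.6% ± 8.11. These shares depend on the length, since the effective length of Slc17a7, 3325 bases, was above its longest annotated transcript, 3080 bases. Per longest transcript the hindbrain mean was 39.9 CPM per kilobase for Slc17a7 and 37.2 for Slc17a6. Slc17a8 stayed at 1.15% or less in every library. Of the plasma membrane transporters Slc1a2 made up 61.7% ± 2.96 in forebrain, 50.1% ± 1.71 in midbrain and 33.6% ± 7.43 in hindbrain. Slc1a3 made up 33.4% ± 2.15, 41.2% ± 0.766 and 55.8% ± 6.65 in the same order. Slc1a1 held 4.38%, 6.40% and 4.81% on average. Slc1a6 held 0.459% ± 0.0968 in forebrain and 5.83% ± 1.55 in hindbrain.

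**Figure D4:**
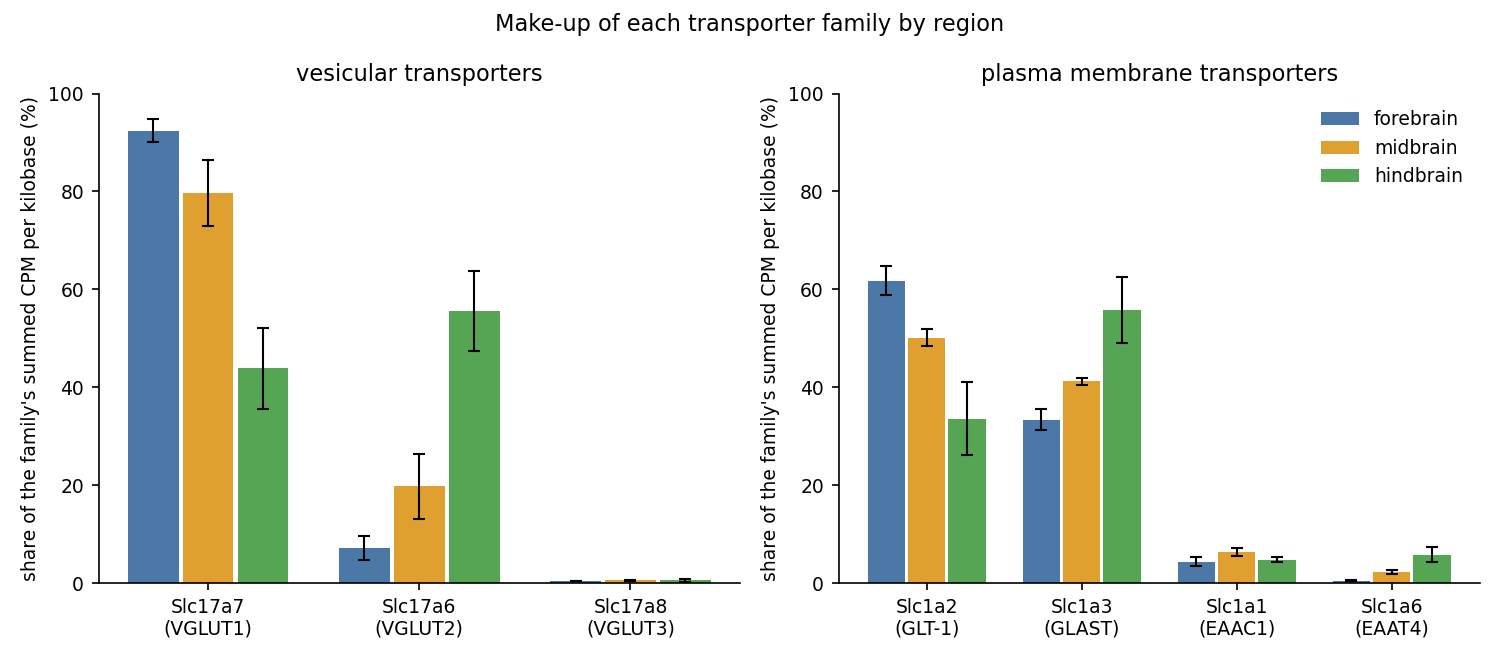
Make-up of the vesicular and the plasma membrane transporters by region. Bars start at 0 and give each gene's mean share, in percent, of its family's summed CPM per kilobase of effective length, and error bars are the SD of 6 libraries. The share of Slc17a7 falls from 92.4% to 43.8% and that of Slc17a6 climbs from 7.15% to 55.6% between forebrain and hindbrain, and Slc1a2 and Slc1a3 exchange first place between the same regions.

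Transcript shares, taken over the transcript files together because those files could not be tied to single libraries, were dominated by 1 annotated transcript in each gene. The median share of that transcript was 99.6% for Slc17a6, 87.6% for Slc1a2, 79.5% for Slc1a3, 87.6% for Slc1a1 and 77.9% for Slc17a7. In Slc17a7 a shorter coding transcript of 1860 bases took a median of 10.4%. Reads of 50 bases from 1 end often cannot tell the transcripts of a gene apart.

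Fmr1CRE and wild-type mice were compared within each region with the same test on 3 libraries against 3. In forebrain 0 of the 7 members had an adjusted p under 0.05, in midbrain 0 of 7 and in hindbrain 0 of 7. The background was 0 of 18467 genes in forebrain (0%), 1 of 18400 in midbrain (0.00543%) and 0 of 19112 in hindbrain (0%), while 1002, 1135 and 981 genes had an unadjusted p under 0.05 and DESeq2 called 31, 62 and 59 genes. The unadjusted counts rose to 3230 in forebrain without Fmr1CRE replicate 3 and to 2223 in midbrain and 2406 in hindbrain without wild-type replicate 3, and they were 2545, 2168 and 2390 without both replicate 3 mice. They fell to 613 in forebrain without Fmr1CRE replicate 1, and without wild-type replicate 2 they were 664, 752 and 626. No member was called by DESeq2 or by any other fit that was run, and the lowest adjusted p of a member over these fits was 0.309.

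The largest forebrain difference was that of Slc1a3, at 442, 619.9 and 579.7 CPM in Fmr1CRE mice and 698, 643 and 839 CPM in wild-type mice. The genotypes did not overlap for Slc1a3, the 1 member of 7 of which this was so, and for 10.3% of all genes tested in forebrain. The log2 fold change was -0.38 with an interval of -0.74 to -0.022 (edgeR, unadjusted p = 0.0402, adjusted p = 0.806). It was -0.29 without both replicate 3 mice (adjusted p = 0.504). Slc1a2 had the next largest forebrain difference, -0.35 with an interval of -0.93 to 0.23 and overlapping genotypes (adjusted p = 0.816). It was -0.15 without Fmr1CRE replicate 1, -0.13 without wild-type replicate 3 and -0.15 without both replicate 3 mice. In the forebrain of Fmr1CRE mice all 7 fitted log2 fold changes were below 0, with a median of -0.19 against 0.00095 over all genes, and 6 of the 7 members had their lowest forebrain value in Fmr1CRE replicate 1. Slc17a6 moved from -0.19 to -0.65 without both replicate 3 mice (adjusted p = 0.540). The 10 astrocyte markers had a median log2 fold change of -0.23 in forebrain, with 0 of 10 called, and their part in the differences of Slc1a3 and Slc1a2 was not tested.

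In midbrain the largest difference was that of Slc1a6, -0.32 with an interval of -0.72 to 0.078 (unadjusted p = 0.1003, adjusted p = 0.814, edgeR). Its genotypes overlapped through Fmr1CRE replicate 2, and all 7 members overlapped between genotypes in midbrain and in hindbrain, where 11.3% and 10.9% of all genes did not. The midbrain libraries of Fmr1CRE replicates 1 and 3, the lowest for Slc1a6, also had the lowest sums of the other Purkinje cell markers, 1333 and 1442 CPM against 1819 to 2294 CPM. In hindbrain the lowest library for Slc1a6, Fmr1CRE replicate 2 (25.1 CPM), had the lowest such sum, 1732 CPM. The highest, wild-type replicate 2 (44.1 CPM), had 1852 CPM, below the 2540 CPM of Fmr1CRE replicate 3 (30.2 CPM). The part of Purkinje cells was not tested. In midbrain Slc17a7 had -0.20 with an interval of -0.73 to 0.33 and an adjusted p of 0.911. The other 5 lay between -0.13 and 0.095. In hindbrain Slc17a8 had 0.40 with an interval of -0.55 to 1.36 (adjusted p = 0.917), which rested on 3.68 CPM in Fmr1CRE replicate 2 against 1.32 to 2.10 CPM in the other mice, and turned to -0.17 without that mouse. Slc17a7 had 0.31 with an interval of -0.21 to 0.84 (adjusted p = 0.889) and Slc17a6 0.0018 with an interval of -0.36 to 0.36 (0.998). The hindbrain level of Slc17a7 was 188 CPM in Fmr1CRE replicate 1 against 93.0 to 122 CPM in the other mice. With 1 mouse left out at a time its difference ran from 0.0081 to 0.48. With both replicate 3 mice left out, the hindbrain difference was 0.76 for Slc17a8, 0.21 for Slc17a6 and 0.30 for Slc17a7, and the midbrain difference -0.27 for Slc1a6 and -0.47 for Slc17a7, with adjusted p between 0.504 and 0.690 (edgeR). The intervals of all mice leave room for changes of either direction in most members.

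The test of whether the genotype difference itself differed between regions called 0 of 7 members, with adjusted p between 0.703 and 0.975 (edgeR), and 0 of 20363 genes (0%), while 1535 genes had an unadjusted p under 0.05 and DESeq2 called 52. That unadjusted count was 2881 without Fmr1CRE replicate 3, 2489 without wild-type replicate 3 and 4076 without both, and 966, 846 and 852 without Fmr1CRE replicate 1, wild-type replicate 1 and wild-type replicate 2. With both replicate 3 mice left out 131 genes were called, 0 of them members. The ratio of Slc17a7 to Slc17a6 differed between genotypes by 0.19, -0.22 and 0.25 on the log2 scale in forebrain, midbrain and hindbrain, with exact permutation p of 1, 0.7 and 0.6 (two-sided, 3 against 3, smallest possible 0.1). It differed by 0.64, -0.58 and 0.037 without both replicate 3 mice. The ratio of Slc1a2 to Slc1a3 differed by 0.019, 0.061 and 0.22 (exact permutation p = 0.9, 0.5 and 0.6), and by 0.097, 0.017 and 0.54 without both replicate 3 mice. After adjustment over the 6 tests of all mice each p was 1.

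**Figure D5:**
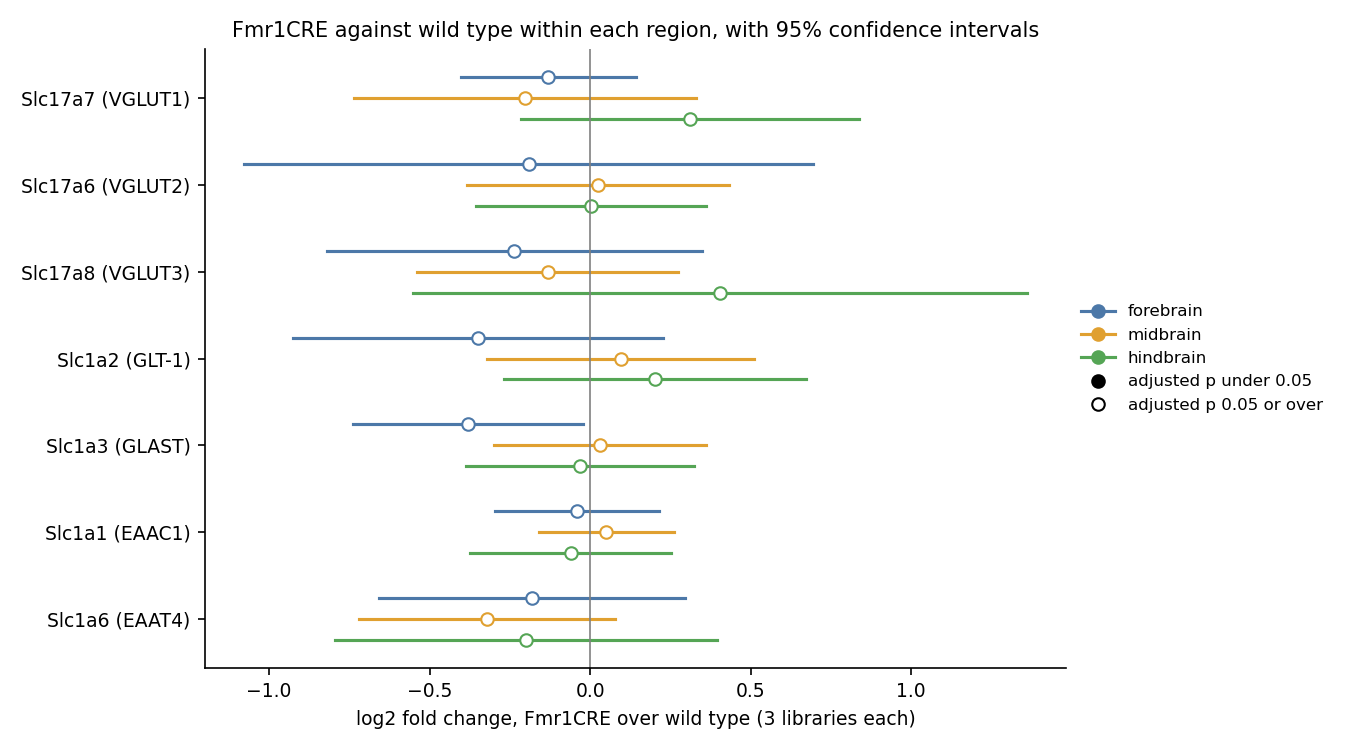
Fmr1CRE against wild type for each member in forebrain, midbrain and hindbrain. The horizontal axis gives the log2 fold change of Fmr1CRE over wild type, lines are 95% confidence intervals of edgeR with 3 libraries a genotype, and open points have an adjusted p of 0.05 or over. All 21 points are open, and the interval of Slc1a3 in forebrain, -0.74 to -0.022, is the one that does not hold 0.

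The enzymes and carriers that supply glutamate and glutamine were followed beside the transporters, as a list of 14 genes that were all tested. Between forebrain and hindbrain 3 were higher in forebrain, 4 lower and 7 not called. Of all genes tested 51.7% were called, 26.4% as higher and 25.3% as lower, so the list was called about as often as other genes. The mitochondrial glutamate carrier Slc25a22 was 2.12-fold higher in forebrain (log2 1.08, SE 0.16, edgeR adjusted p = 4.27e-05). Glul, the glutamine synthetase of astrocytes, was 1.61-fold higher (0.69, SE 0.11, 7.44e-05). The glutamine carrier Slc38a3 was 1.38-fold higher (0.46, SE 0.18, 0.0439). The aspartate-glutamate carrier Slc25a13 was 3.48-fold lower in forebrain (-1.80, adjusted p = 3.74e-05), the amino acid carriers Slc38a2 and Slc38a1 were 1.74-fold and 1.32-fold lower (-0.80, 5.81e-05; -0.40, 0.0104), and the transaminase Got1 was 1.18-fold lower (-0.24, 0.0177). The median log2 fold change of the list was -0.031, beside -0.0085 over all genes. The call of Slc38a3 was lost without any 1 of Fmr1CRE replicates 2 and 3 and wild-type replicates 1 and 3 (log2 0.27 to 0.51, edgeR adjusted p 0.0671 to 0.170), and without both replicate 3 mice (0.22, 0.334). That of Got1 was lost without any 1 of Fmr1CRE replicates 1 and 2 and wild-type replicates 2 and 3 (-0.23 to -0.18, 0.0567 to 0.0880), and that of Slc38a1 without Fmr1CRE replicate 2 (-0.33, 0.0520).

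Between forebrain and midbrain 0 of the 14 were higher in forebrain and 6 were lower, beside 9.38% and 9.96% of all genes. The 4 with the largest difference were Slc25a13 (log2 -0.87, edgeR adjusted p = 0.0334), Slc38a1 (-0.69, 0.000872), Slc38a2 (-0.52, 0.00809) and Slc25a12 (-0.45, 0.0376). Between midbrain and hindbrain 3 were higher in midbrain, Slc25a22 (1.36, 6.96e-06), Got2 (0.45, 0.00105) and Glul (0.37, 0.0111), and Slc25a13 was lower (-0.93, 0.00730). Of all genes 25.1% were called as higher in midbrain than in hindbrain and 24% as lower. Between genotypes 0 of 14 were called in any region, beside the shares of all genes given above. Without any 1 mouse but Fmr1CRE replicate 3, the call of Slc25a13 between forebrain and midbrain was lost (-0.89 to -0.47, edgeR adjusted p 0.0875 to 0.226), as it was with the mouse as a block (-0.79, 0.0734). That of Slc25a12 was lost without any 1 of replicates 1 and 2 of either genotype (-0.45 to -0.38, 0.0680 to 0.181) and that of Slc38a2 without Fmr1CRE replicate 1 (-0.48, 0.0517). Between midbrain and hindbrain the call of Glul was lost without any 1 of Fmr1CRE replicate 3 and wild-type replicates 1 and 2 (0.32 to 0.35, 0.0530 to 0.0701) and that of Slc25a13 without Fmr1CRE replicate 2 (-0.79, 0.0535).

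Of 15 further genes of the Slc1 and Slc17 families and of transporter partners, 10 passed the filter. Between forebrain and hindbrain 4 were higher in forebrain, the cystine-glutamate exchanger Slc7a11 (log2 0.72, edgeR adjusted p = 0.00014), the neutral amino acid transporter Slc1a4 (0.60, 0.000923), the lysosomal sialic acid transporter Slc17a5 (0.40, 0.00168) and Arl6ip5 (0.18, 0.0208), whose product binds EAAC1. The astrocytic potassium channel Kcnj10 was lower in forebrain (-0.55, 0.00336). Of all genes 51.7% were called between these regions. Between forebrain and midbrain 0 of 10 were called, and between midbrain and hindbrain Slc1a4 (0.79, 0.000104), Slc7a11 (0.65, 0.000429) and Slc17a5 (0.53, 0.000184) were higher in midbrain. Of all genes 19.3% and 49.1% were called in these comparisons. Slc1a7, which encodes the remaining plasma membrane glutamate transporter of the family, EAAT5, stayed at 0.337 CPM or less in every library. Slc17a4 was at 0 in all 18 libraries. The call of Arl6ip5 was lost without any 1 of Fmr1CRE replicate 3 and wild-type replicates 1 and 2 (0.16 to 0.18, edgeR adjusted p 0.0540 to 0.0793), and without both replicate 3 mice (0.16, 0.0866).

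The genes whose profile over the 18 libraries lay nearest to each member were found by the root mean square difference of mean-centred log2 CPM, over 20363 genes. For Slc17a7 they were Cnksr2, Slc8a2 and Mmp17, with a difference of 0.17 to 0.21 beside a root mean square deviation of 1.30 of Slc17a7 from its own mean. For Slc1a2 they were Pde8b, Mertk and Ppp1r9b (0.18 to 0.19, own deviation 0.84), and for Slc1a6 Homer3, Trim67 and Gdf10 (0.18 to 0.28, own deviation 1.15). Slc1a1 had the closest neighbours, Nrcam, Slitrk3 and Arfgef3 (0.076 to 0.11, own deviation 0.45). Slc17a6 had the least close, Gm6981, Nrip2 and Plcb4 (0.30 to 0.34, own deviation 0.73). Slc17a8 had Col25a1, Astn1 and Cacna1b (0.22 to 0.23, own deviation 0.79) and Slc1a3 had Scg3, Add3 and Mprip (0.15 to 0.16, own deviation 0.24), which for Slc1a3 is not far below its own spread. With 3 regions that differ in most genes, likeness of this kind describes the regional pattern.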

How the data were processed

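mRNA of 3 regions of 3 wild-type and 3 Fmr1CRE mice of 1 litter was sequenced as poly(A) RNA with single-end 50-base reads, in 2 pools of 9 libraries whose make-up is not given in the sources used here. The authors ran the bcbio_nextgen pipeline and deposited gene counts, made from salmon estimates as whole numbers per gene and not normalized. The authors also deposited expected counts, TPM and effective lengths per transcript for each library, from salmon. The submitters' processing notes name Salmon 0.14.0, DESeq2 1.30.1 and mm10. The annotation is not given in the sources used here, and GENCODE M21 for GRCm38 was used for symbols. The transcript files' contents were closest to the library of their own record in 2 of 18 files, so they were used pooled, for lengths and transcript shares. The deposited log2 values were not used here, and 0 measured columns were left without a sample.

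Counts were tested with edgeR 4.0.16 in R 4.3.3 (TMM, edgeR's default filter, quasi-likelihood test, Benjamini-Hochberg at 0.05), with 2 as the prior count of log2 CPM. The region fits had no term for the mouse. The labels' mouse number pairs the regions of a mouse, whose deviations from the group means correlated across genes at -0.17 to 0.18. Alternatives were DESeq2 1.42.0, its size factors, other filters, the replicate block, single genotypes and mice left out. The edgeR and DESeq2 fits of the regions, of the interaction and of the genotypes in hindbrain were tried on simulated counts. P-values of the edgeR and DESeq2 tests rest on the spread between the libraries of a group, each from another mouse. That spread takes in any difference in dissection. The part of counting error was not measured for single members. Counts were few for Slc17a8, and for Slc1a6 in forebrain (102 to 149 a library). The genes and the lists were chosen with earlier results of these data known. Named were all members, from the lists of the pathway up to 4 called genes a direction, the 3 nearest genes of each member, and markers set beside a member. Pc of the pathway list is named Pcx in GENCODE M21, and 2 genes of the lists are not reported here.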

Additional observations from a re-analysis of the deposited data

Results flagged for a closer look

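In 27 groups of 6 libraries of a region (7 genes and 2 ratios in 3 regions), the gap of the highest and the lowest library to its nearest neighbour was set against the range of the group. Chance flags about 1 in 20 groups. There were 4 single libraries that stood apart. Slc17a7 was at 9.45 log2 CPM in the forebrain of Fmr1CRE replicate 1, below the other forebrain libraries. Slc17a8 was at 1.59 log2 CPM in the same library, its lowest forebrain value. Slc17a8 was at 2.21 log2 CPM in the midbrain of Fmr1CRE replicate 2, the lowest of the region. Slc1a1 was at 6.39 log2 CPM in the midbrain of wild-type replicate 3, below the other midbrain libraries.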

How the results depend on the processing

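The counts of members called were 6, 3 and 5 in the region comparisons and 0 in the genotype comparisons. They stayed within 1.5 times of these values in each alternative but the Fmr1CRE mice alone, an alternative chosen after seeing the data, where 1 member was called between forebrain and midbrain. With the mouse as a replicate block they were again 6, 3 and 5, and no member's call changed with a block. Of the pathway genes, Slc25a13 lost its call between forebrain and midbrain with that block. Between forebrain and hindbrain, Arl6ip5 and Got1 lost theirs without a filter on low counts (edgeR adjusted p = 0.0743 and 0.0540). Arl6ip5 and Slc38a3 lost theirs with a minimum of 10 counts (0.0739 and 0.0527). In the wild-type mice alone so did Arl6ip5, Got1, Kcnj10 and Slc38a1 (0.0762 to 0.150). Between forebrain and midbrain Slc25a12, Slc25a13 and Slc38a2 lost theirs in those mice (0.0777 to 0.204). In the Fmr1CRE mice alone further pathway calls were lost. Across genotypes, libraries of 1 replicate number correlated in their deviations from the group means at -0.12 to 0.069. Libraries of the same mouse did so at -0.17 to 0.18, so this measure cannot tell whether the number pairs mice. With the replicate number as a block 0 members were called between genotypes. With the longest transcript as the length, the order of levels was kept in 1 of 3 regions. Signs turned only in differences that were not called. Slc1a3 between forebrain and midbrain turned to -0.033 without both replicate 3 mice and to -0.12 in the Fmr1CRE mice alone. Without both replicate 3 mice the midbrain genotype difference of Slc1a2 was -0.012, of Slc1a3 -0.043 and of Slc1a1 -0.025, and that of Slc1a1 in hindbrain was 0.057. Slc17a6 turned to -0.0028 in midbrain with the replicate block and to -0.0018 in hindbrain with a minimum of 10 counts.

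With 1 mouse left out at a time, Slc1a3 ran from -0.011 to 0.15 between forebrain and midbrain and Slc17a6 from -0.023 to 0.22 between midbrain and hindbrain. The genotype difference ran in forebrain from -0.48 to 0.16 for Slc17a6 and -0.13 to 0.030 for Slc1a1. In midbrain it ran from -0.37 to 0.0071 for Slc17a7, -0.18 to 0.18 for Slc17a6, -0.085 to 0.25 for Slc1a2, -0.11 to 0.15 for Slc1a3 and -0.020 to 0.10 for Slc1a1. In hindbrain it ran from -0.10 to 0.19 for Slc17a6, -0.17 to 0.67 for Slc17a8, -0.036 to 0.36 for Slc1a2, -0.11 to 0.11 for Slc1a3 and -0.14 to 0.053 for Slc1a1. The genotype difference of the ratio of Slc17a7 to Slc17a6 ran from -0.35 to 0.49 in forebrain, -0.53 to 0.22 in midbrain and -0.045 to 0.48 in hindbrain, and that of Slc1a2 to Slc1a3 from -0.086 to 0.12 in forebrain and -0.15 to 0.46 in hindbrain. The cause was not tested.

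Over all genes, 3939 were called between forebrain and midbrain, 2258 to 2592 without wild-type replicate 1, wild-type replicate 2 or Fmr1CRE replicate 1, 1729 in the wild-type mice and 527 in the Fmr1CRE mice alone. The interaction called 131 genes without both replicate 3 mice, against 0 with all mice. Counting error matters for Slc17a8, with 37 to 165 counts a library, and for Slc1a6 in forebrain, with 102 to 149.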

Other observations

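Of the marker lists, 6 of 7 cortical and hippocampal markers were higher in forebrain than in hindbrain and 3 of 7 higher and 1 lower in forebrain than in midbrain (edgeR, adjusted p under 0.05). Of all genes 51.7% were called between forebrain and hindbrain, 19.3% between forebrain and midbrain and 49.1% between midbrain and hindbrain. All 10 midbrain markers were lower in forebrain than in midbrain, and 7 of 10 were higher and 2 lower in midbrain than in hindbrain. Of the thalamic markers 3 of 8 were lower in forebrain than in midbrain. All 8 granule cell markers were lower in forebrain than in hindbrain and 7 of 8 lower in forebrain than in midbrain, and of the Purkinje cell markers, with Slc1a6 among them, 6 of 8 and 7 of 8. All 8 medulla and pons markers were lower in forebrain than in midbrain and in midbrain than in hindbrain. Of the serotonin markers 5 of 6 were higher in midbrain than in hindbrain, and Tph2 reached 32.9 CPM in midbrain. The markers of cholinergic and VGLUT3 neurons were 2 higher and 2 lower of 6 between forebrain and hindbrain. Of the Bergmann glia markers 5 of 6 were lower and 1 higher in forebrain than in hindbrain, of the oligodendrocyte markers 7 of 8 were lower, and of the pan-neuronal markers 3 were higher and 4 lower of 8.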
